A study of Mus musculus with 20 samples.

Results

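The immediate early genes Fos, Fosb, Fosl1, Jun, Junb, Egr1 and Ier2 and the 3 NR4A genes Nr4a1, Nr4a2 and Nr4a3 were followed in subcutaneous tumors. These 10 genes were chosen by mouse symbol from the 35226 genes of the count table, with earlier results of these data known. All 10 had enough counts to be among the 16665 genes tested. Poly(A) RNA of 20 tumors had been sequenced, with 1 library per tumor, and each of the 4 groups held 5 tumors. The tumors grew from LLC1 cells, a mouse Lewis lung carcinoma line, injected under the skin of male C57BL6/J mice aged 8 to 10 weeks, and mice were assigned to groups once a tumor reached 100 mm3. The groups received vehicle, KW6002 (istradefylline, an antagonist of the adenosine receptor that Adora2a encodes), cisplatin (a platinum drug that crosslinks DNA), or both drugs, called cotreatment here. The dose and schedule of the tumor-bearing mice, and the interval between the last dose and tumor collection, are not given in the sources used here. All groups carry the same tumor line, each tumor mixes LLC1 cells with host cells, and the P values measure the spread between these tumors.

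Immediate early genes are switched on within minutes of a stimulus, without new protein synthesis, by transcription factors already present in the cell, such as SRF with its ternary complex partners and CREB. FOS and JUN proteins pair to form AP-1, EGR1 binds GC-rich sites, and NR4A proteins are orphan nuclear receptors whose genes respond strongly to cAMP, the second messenger that this receptor raises. Their transcripts are short lived.

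To show which motifs of CREB, EGR and related factors are present, the 250 bases before the RefSeq start site (GRCm38.p6) were searched on both strands for the CRE half-site TGACG, the full CRE TGACGTCA, which contains the half-site, the AP-1 site TGANTCA, the EGR site GCGNGGGCG, the NR4A site AAAGGTCA and the CArG box bound by SRF. An entry was used for 7 of the 10 genes (Fos, Fosb, Jun, Junb, Nr4a1, Nr4a2 and Nr4a3). At least 1 CRE half-site lay in 6 of these 7 windows, against 17.8% of all 32851 windows of that length. Nr4a1, Nr4a2 and Nr4a3 each held 4, a number reached by 0.137% of all windows. An EGR site lay in the windows of Fosb, Nr4a1 and Nr4a2, 3 of 7, against 4.7% of all windows. The other motifs searched were in 0 of the 7 windows, and they occurred in 1.55% (full CRE), 6.75% (AP-1 site), 1.34% (NR4A site) and 1.47% (CArG box) of all windows. A match says only that the letters are present, and a missing match only that these letters are absent from the 250 bases. Sites outside the window and variants of a motif were not searched. The sequences of Fos, Jun and Junb, AP-1 genes called in at least 1 comparison, and of the NR4A genes are printed 5′ to 3′ on the gene's strand, with CRE half-sites and EGR sites in capitals. Jun is shown as the window without either.
Fos (chr12:85473640-85473889, plus strand): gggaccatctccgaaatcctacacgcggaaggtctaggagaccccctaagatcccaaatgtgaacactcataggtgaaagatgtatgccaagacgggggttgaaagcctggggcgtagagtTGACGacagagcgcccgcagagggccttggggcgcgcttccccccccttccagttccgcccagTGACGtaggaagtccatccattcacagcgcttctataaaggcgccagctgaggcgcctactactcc
Jun (chr4:95052223-95052472, minus strand): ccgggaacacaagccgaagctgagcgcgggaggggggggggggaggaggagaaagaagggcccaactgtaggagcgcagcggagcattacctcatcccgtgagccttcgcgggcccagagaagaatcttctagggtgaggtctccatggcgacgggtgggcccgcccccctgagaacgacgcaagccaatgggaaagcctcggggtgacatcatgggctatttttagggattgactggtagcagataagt
Junb (chr8:84978749-84978998, minus strand): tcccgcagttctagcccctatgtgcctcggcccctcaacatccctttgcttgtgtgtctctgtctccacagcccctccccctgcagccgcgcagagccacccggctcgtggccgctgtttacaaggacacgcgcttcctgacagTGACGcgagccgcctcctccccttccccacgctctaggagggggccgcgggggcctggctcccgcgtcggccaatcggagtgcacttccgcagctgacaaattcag
Nr4a1 (chr15:101266596-101266845, plus strand): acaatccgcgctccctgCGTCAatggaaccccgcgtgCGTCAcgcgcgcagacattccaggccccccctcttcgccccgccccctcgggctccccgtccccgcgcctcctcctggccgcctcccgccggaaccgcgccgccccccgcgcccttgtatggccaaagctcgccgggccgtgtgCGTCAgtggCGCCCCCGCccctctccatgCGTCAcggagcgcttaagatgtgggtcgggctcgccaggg
Nr4a2 (chr2:57124004-57124253, minus strand): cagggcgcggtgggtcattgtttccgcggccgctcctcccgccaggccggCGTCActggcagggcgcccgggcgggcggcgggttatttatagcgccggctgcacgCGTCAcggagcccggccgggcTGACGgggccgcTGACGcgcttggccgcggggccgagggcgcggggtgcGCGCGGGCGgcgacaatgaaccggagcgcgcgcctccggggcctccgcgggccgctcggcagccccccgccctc
Nr4a3 (chr4:48045055-48045152, plus strand): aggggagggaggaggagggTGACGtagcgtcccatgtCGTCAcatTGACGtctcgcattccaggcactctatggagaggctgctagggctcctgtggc
The Nr4a3 stretch is 98 bases long because GENCODE starts the gene inside the RefSeq window, and it shows 3 of the 4 half-sites. The Nr4a1 window lies within the GENCODE span of that gene, at an internal start site. The half-sites of Fos began 129 and 66 bases before its start, and that of Junb 106 bases before.

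The libraries held between 28.4 and 41 M counted reads. Values are counts per M reads (CPM) after TMM scaling. The library codes given with the samples fall into an earlier range, with 1 vehicle, 2 KW6002, 2 cisplatin and 3 cotreated tumors, and a later range, with 4, 3, 3 and 2, and comparisons are also given by code range. The earlier range held a single vehicle tumor, replicate 1, and no comparison with vehicle was made in it. Of 5 epithelial markers, Krt8 and Krt18 made up nearly all of the sum, Cdh1 had 38 to 110 and Epcam 0 to 5 reads per tumor. The sum was 324 to 435 CPM in vehicle and KW6002 tumors and 468 to 600 CPM in cisplatin and cotreated tumors, without overlap, and the 1 lung lineage marker of 4 with a row in the table reached at most 0.0307 CPM. Host cell markers differed between groups. The sum of 7 neutrophil markers was 44.7 to 120 CPM in vehicle and 48.5 to 148 CPM in KW6002 tumors, but 13.8 to 67.3 CPM after cisplatin and 13.6 to 32.4 CPM after cotreatment. That of 6 endothelial markers fell from 128 to 191 CPM in vehicle to 61.1 to 82.2 CPM after cisplatin and 63.8 to 99.5 CPM after cotreatment. In bulk tumors, fewer cells of a type and less RNA per cell cannot be told apart.

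The genes differed widely in level. Per kilobase of annotated exon, Fosl1, which codes for the AP-1 subunit FRA1, was the highest of the 10, with a mean of 54.7 FPKM over the 20 tumors (40.2 to 92.5). Jun followed with 27.1 FPKM (20.5 to 34.1) and did not overlap with Fosl1. Then came Ier2, a small nuclear protein, Junb, a JUN relative, and Fos, with means of 7.9, 7.28 and 6.42 FPKM, and their ranges overlapped with each other but not with that of Jun. Egr1 averaged 3.28 FPKM (1.35 to 6.45) and overlapped with Fos above it and with Nr4a1 (2.71 FPKM) and Nr4a2 (2.68 FPKM) below it. Fosb had 0.735 FPKM (0.481 to 1.91), and Nr4a3 was the lowest with 0.14 FPKM (0.0417 to 0.265). The Nr4a3 values rest on 8 to 51 reads per tumor. Fosl1 stood at the 95.7th percentile of the genes tested and Nr4a3 at the 5.7th.

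Several of these genes varied more between tumors of one group than most genes did. The biological coefficient of variation within groups was 39% for Fos, 35.8% for Egr1, 30.9% for Fosb, 29.6% for Nr4a3 and 28.3% for Junb, against a median of 12.7% over all genes tested. It was 11.3% for Jun, 12% for Nr4a2, 14.8% for Fosl1, 16.7% for Ier2 and 17.6% for Nr4a1. The 5 most variable genes were therefore measured with the widest intervals in the comparisons that follow.

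**Figure D1:**
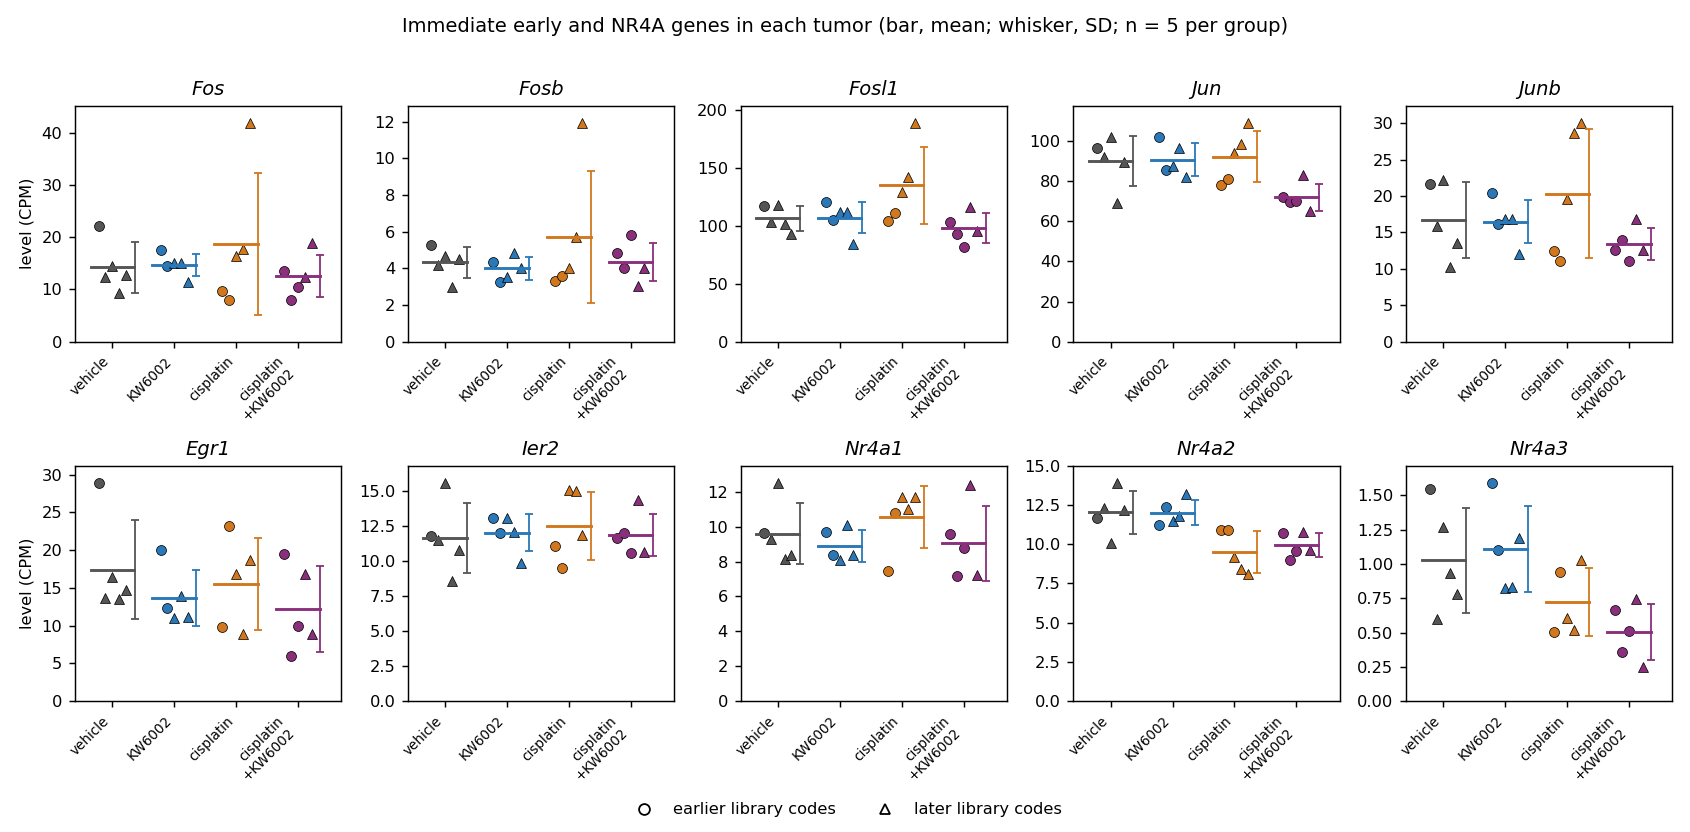
Level of each gene (CPM, linear axis from 0) in every tumor by group. Circles are tumors with earlier and triangles with later library codes, horizontal bars are means and whiskers SD (n = 5). Cisplatin replicate 5 is the highest point for Fos (41.9 CPM), and for Nr4a3 the 5 cotreated tumors (0.25 to 0.743 CPM) lie below the 5 KW6002 tumors.

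To ask whether KW6002 alone altered these genes, it was compared with vehicle. None of the 10 genes passed the thresholds (adjusted P under 0.05 and an absolute log2 fold change of at least 0.32 in edgeR), and 0% of all genes tested did. At an unadjusted P under 0.05 there were 339 genes (2.03%), of which 0 were among the 10, and DESeq2 called 0. The 3 cAMP-inducible NR4A genes were at 9.59 ± 1.75 and 8.91 ± 0.917 CPM (Nr4a1), 12 ± 1.37 and 12 ± 0.803 CPM (Nr4a2), and 1.03 ± 0.384 and 1.11 ± 0.313 CPM (Nr4a3) in vehicle and KW6002 tumors (SD, n = 5). Their log2 fold changes were -0.10, 0.00 and 0.11. The 95% interval was narrowest for Nr4a2 and Jun, from -0.21 to 0.21 and from -0.20 to 0.22 on the log2 scale, and widest for Fos, from -0.72 to 0.82. Egr1, a zinc finger factor, had the largest estimate, a log2 fold change of -0.35 (interval -1.05 to 0.35). Its mean in vehicle, 17.4 ± 6.53 CPM, was raised by replicate 1 at 28.9 CPM, against 13.5 to 16.4 CPM in the other 4 vehicle tumors.

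Cisplatin alone was then compared with vehicle. Nr4a2 fell, and 0 of the 10 genes rose, so that 1 of 10 was called against 10.6% of all genes tested (4.57% lower). Nr4a2 (ENSMUSG00000026826, chromosome 2, 57106830 to 57124003, protein coding) measured 11.7, 12.3, 10.1, 13.9 and 12.2 CPM in vehicle and 11.2, 12.4, 11.5, 11.8 and 13.2 CPM in KW6002 tumors, replicates 1 to 5. It measured 10.9, 10.9, 9.2, 8.4 and 8.07 CPM in cisplatin and 10.7, 9.01, 9.58, 10.8 and 9.64 CPM in cotreated tumors. Vehicle and cisplatin tumors overlapped, since vehicle replicate 3 lay below cisplatin replicates 1 and 2. The log2 fold change was -0.34 ± 0.099 (SE, adjusted P = 0.0216, edgeR). Without vehicle replicate 4 or cisplatin replicate 3, 4 or 5, the adjusted P of Nr4a2 was 0.0705, 0.0521, 0.0664 and 0.06. Among later codes alone its log2 fold change was -0.48 (adjusted P = 0.0118, edgeR). It was not called without a filter on low counts (adjusted P = 0.0625), with only the 2 groups in the fit (adjusted P = 0.0824) or with separate code terms with and without cisplatin (-0.23, adjusted P = 0.355).

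The other 9 genes did not pass after cisplatin, with log2 fold changes from -0.50 for Nr4a3 to 0.40 for Fos and Fosb. Fosl1 came nearest, with 106 ± 10.7 CPM in vehicle and 135 ± 33.3 CPM in cisplatin tumors and 0.34 ± 0.13 on the log2 scale (SE, adjusted P = 0.085, edgeR). It passed in 1 of 20 fits that each left out 1 tumor. This was the fit without cisplatin replicate 1, at 0.44 on that scale (adjusted P = 0.0271, edgeR). Over the 20 fits the value ran from 0.20 to 0.44, with an adjusted P up to 0.255. The median log2 fold change of the 10 genes was 0.12, and that of all genes tested was 0. The median hides a spread between tumors: Fos had a coefficient of variation of 72.3% over the 5 cisplatin tumors, against 33.9% in vehicle and 14.8% in KW6002 tumors.

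Part of that spread went with the library codes. Another part lay within the later codes, where Fos ranged from 16.5 to 41.9 CPM in cisplatin tumors. Fos (ENSMUSG00000021250, chromosome 12, 85473890 to 85477273), the founding AP-1 member, measured 22.2, 12.4, 14.6, 9.3 and 12.7 CPM in vehicle and 17.5, 14.5, 15, 15 and 11.4 CPM in KW6002 tumors. In cisplatin tumors it was 9.64, 8.07, 16.5, 17.8 and 41.9 CPM and in cotreated tumors 13.5, 8.07, 10.4, 12.4 and 18.9 CPM. Cisplatin replicates 1 and 2 have earlier codes and were among the lowest of the 20 tumors, and replicates 3 to 5 have later codes and lay above all 4 vehicle tumors with later codes (9.3 to 14.6 CPM). Within the later codes the log2 fold change of Fos for cisplatin against vehicle was 1.07 (adjusted P = 0.0426, edgeR) and that of Fosl1 was 0.58 (adjusted P = 0.0172). With Nr4a2 these were 3 of 10 genes called, against 15.9% of all genes tested in that fit. The Fos value among later codes includes cisplatin replicate 5, at 41.9 CPM beside 16.5 and 17.8 CPM in replicates 3 and 4. With both code ranges together Fos stood at 0.40 (adjusted P = 0.478), which became -0.13 without cisplatin replicate 5.

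Among the 10 tumors of both cisplatin groups, later codes were compared with earlier codes directly, with the groups kept apart in the model. Fos, Fosl1 and Junb were higher in tumors with later codes and 0 of the 10 genes were lower, so that 3 of 10 were called, against 7.29% of all genes tested (4.65% in that direction). The log2 differences were 1.04 ± 0.29 for Fos (adjusted P = 0.0273), 0.69 ± 0.22 for Junb (adjusted P = 0.0442) and 0.35 ± 0.11 for Fosl1 (adjusted P = 0.0459, SE, edgeR). Of 20 fits that each left out 1 tumor, the call held in 17 for Fos (not without cisplatin replicate 1 or 2 or cotreated replicate 5), in 7 for Junb and in 8 for Fosl1, with an adjusted P up to 0.118, 0.184 and 0.155. Those of Junb and Fosl1 were both lost without vehicle replicate 1, 2 or 5, KW6002 replicate 1 or 4, cisplatin replicate 1, 2, 4 or 5, or cotreated replicate 3 or 4. That of Junb was also lost without KW6002 replicate 3 or cotreated replicate 1, and that of Fosl1 without vehicle replicate 4. Without a filter on low counts all 3 calls were lost (adjusted P = 0.0651 for Fos, 0.123 for Junb and 0.15 for Fosl1), and with limma that of Fosl1 was lost (adjusted P = 0.0508). Jun, at 0.21 (adjusted P = 0.135), and Ier2, at 0.29 (adjusted P = 0.156), did not pass. Fosb, Nr4a1 and Nr4a2 stood at 0.30, 0.26 and -0.14 on the log2 scale. Egr1 and Nr4a3 had log2 differences of -0.03 and -0.02. Over all 20 tumors 0 of the 10 genes were called by code range, against 0.006% of all genes tested, and at an unadjusted P under 0.05 there were also 0 of the 10 (13.4% of all genes). The log2 differences there ran from -0.33 for Egr1 to 0.27 for Fos.

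Junb (ENSMUSG00000052837, chromosome 8, 84974484 to 84978718) showed the same split. It measured 12.4 and 11.1 CPM in the cisplatin tumors with earlier codes (replicates 1 and 2) and 19.6, 28.7 and 30 CPM in those with later codes (replicates 3 to 5), without overlap. In cotreated tumors it was 12.6, 14 and 11.1 CPM with earlier codes and 16.8 and 12.6 CPM with later codes, which did overlap. Vehicle tumors had 21.7, 15.9, 22.2, 10.3 and 13.5 CPM and KW6002 tumors 20.5, 16.2, 16.8, 16.9 and 12.1 CPM, where the tumors with earlier codes were vehicle replicate 1 and KW6002 replicates 1 and 2, and lay within or above the range of the later codes.

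A model chosen after these data were seen had a code term of its own for each arm. In the cisplatin arm the log2 differences between later and earlier codes were 1.52 ± 0.37 for Fos (adjusted P = 0.0269) and 1.15 ± 0.27 for Junb (adjusted P = 0.0252, SE, edgeR), 2 of 10 genes against 9.66% of all genes tested. In cotreated tumors the values were 0.55 ± 0.35 and 0.23 ± 0.26 (adjusted P = 0.561 and 0.77), 0 of 10 against 0.012%. The Fos value of the cisplatin arm includes replicate 5, at 41.9 CPM, where the next cisplatin tumor had 17.8 CPM. Fosb had 1.07 in the cisplatin and -0.47 in the cotreated arm (adjusted P = 0.0519 and 0.613), and Nr4a2 had -0.35 and 0.06 (adjusted P = 0.0781 and 0.877). The code effect in the cisplatin arm minus that in the cotreated arm was 0.97 ± 0.50 for Fos (adjusted P = 0.621) and 0.92 ± 0.38 for Junb (adjusted P = 0.617, SE, edgeR), so that a difference between these arms was not called. For Fosb it was 1.54 ± 0.48, the largest of the 10 genes (adjusted P = 0.617). That test called 0 of the 10 genes and 0% of all genes, and 3 of the 10 (Fosb, Junb and Nr4a2) had an unadjusted P under 0.05, against 7.8% of all genes. Also read after these data were seen were the terms of the direct comparison above, which had separate code terms with and without cisplatin. With cisplatin the log2 differences were 1.04 for Fos and 0.69 for Junb, as given above. Without cisplatin those of Fos and Junb were -0.49 ± 0.29 and -0.36 ± 0.23 (adjusted P of 0.939 for both, SE, edgeR). The difference between the code effect with and without cisplatin was itself tested and gave 1.52 ± 0.40 for Fos (adjusted P = 0.0599) and 1.04 ± 0.31 for Junb (adjusted P = 0.0736). None of the 10 genes passed that test, against 1.81% of all genes tested, and 4 of them (Fos, Fosl1, Jun and Junb) had an unadjusted P under 0.05, against 24.2% of all genes.

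Neutrophil and macrophage markers differed by code range in the cisplatin tumors. The sum of the 7 neutrophil markers was 14.1 and 13.8 CPM in cisplatin replicates 1 and 2, and 24, 38.7 and 67.3 CPM in replicates 3 to 5. Cotreated tumors had 17.8, 17.1 and 13.6 CPM with earlier codes and 32.4 and 15.9 CPM with later codes. Without cisplatin the direction was the opposite. Vehicle tumors had 120 CPM with earlier and 44.7 to 73.2 CPM with later codes. KW6002 tumors had 148 and 96.4 CPM with earlier and 48.5 to 72.4 CPM with later codes. Of the 7 markers, Ly6g and Camp were at or near 0 throughout (0 to 8 and 0 to 5 reads per tumor), and S100a8, S100a9, Csf3r, Cxcr2 and Retnlg made up the sum. Macrophage markers summed to 1270 and 1420 CPM in the cisplatin tumors with earlier codes and to 1960, 2250 and 1770 CPM in those with later codes. In cotreated tumors they overlapped, with 1270, 1610 and 1270 CPM for earlier and 1500 and 1640 CPM for later codes. Fibroblast markers summed to 2430 and 2150 CPM in cisplatin replicates 1 and 2 and to 2270, 3880 and 3410 CPM in replicates 3 to 5. Skeletal muscle markers ranged from 3.58 to 244 CPM in cisplatin tumors and reached 1030 CPM in cotreated replicate 4, the cotreated tumor highest in Jun and Fosl1. Fosl1 was at 104, 111, 129, 142 and 188 CPM in cisplatin replicates 1 to 5. In vehicle tumors, with 44.7 to 120 CPM of neutrophil markers, it was at 92.8 to 118 CPM. The part of these cells in the result was not tested.

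**Figure D2:**
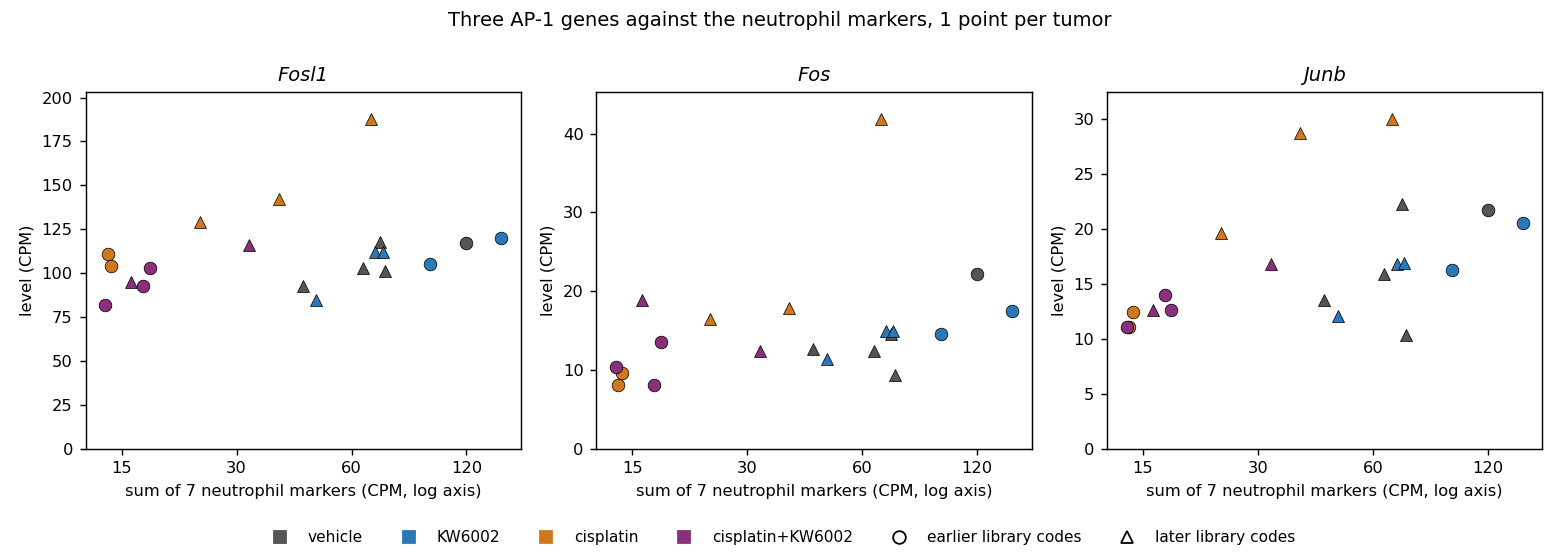
Levels of Fosl1, Fos and Junb (CPM, linear axis from 0) against the summed level of 7 neutrophil markers (CPM, log axis), 1 point per tumor, colored by group, with circles for earlier and triangles for later library codes. Among cisplatin tumors both rise from replicates 1 and 2 (14.1 and 13.8 CPM of markers) to replicate 5 (67.3 CPM), which has more markers than vehicle replicates 2 and 5 (64.3 and 44.7 CPM) and the highest Fosl1 of the 20 tumors (188 CPM).

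Cotreatment was compared with cisplatin to ask what KW6002 added. Both genes called, Jun and Fosl1, were lower after cotreatment, 2 of 10 against 4% of all genes tested (1.71% in that direction). Jun (ENSMUSG00000052684, chromosome 4, 95049034 to 95052222), the main partner of FOS in AP-1, measured 96.9, 92.1, 102, 69.4 and 89.8 CPM in vehicle and 102, 85.5, 87.9, 96.6 and 82 CPM in KW6002 tumors. It measured 78.1, 81.2, 94.3, 98.7 and 109 CPM in cisplatin and 72, 69.5, 70.1, 83.2 and 65.4 CPM in cotreated tumors. Cotreated replicate 4 overlapped with cisplatin replicates 1 and 2, and the other 4 cotreated tumors lay below every cisplatin tumor. The log2 fold change of Jun was -0.36 ± 0.10 (SE, adjusted P = 0.0373, edgeR). The call held in 10 of 20 fits that each left out 1 tumor. It was lost without vehicle replicate 5, KW6002 replicate 3 or 4, cisplatin replicate 3, 4 or 5, or cotreated replicate 1, 2, 3 or 5, with an adjusted P up to 0.117 and a log2 fold change from -0.29 to -0.41 over the 20 fits.

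Fosl1 (ENSMUSG00000024912, chromosome 19, 5447547 to 5455946) measured 117, 103, 118, 101 and 92.8 CPM in vehicle and 120, 105, 112, 112 and 84.4 CPM in KW6002 tumors. It measured 104, 111, 129, 142 and 188 CPM in cisplatin and 103, 92.6, 81.7, 116 and 95 CPM in cotreated tumors. Only cotreated replicate 4 reached into the range of the cisplatin tumors, where replicate 5 stood highest. The log2 fold change was -0.47 ± 0.13 (SE, adjusted P = 0.0428, edgeR). This call held in 6 of 20 such fits, those without vehicle replicate 4, KW6002 replicate 1 or 5, cisplatin replicate 1 or 2, or cotreated replicate 4. In the others the adjusted P was 0.0515 to 0.135. The log2 fold change was nearest 0 without cisplatin replicate 5, at -0.31 (adjusted P = 0.125).

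Neither call held within a code range. Among later codes the log2 fold change for cotreatment against cisplatin was -0.43 for Jun (adjusted P = 0.304) and -0.53 for Fosl1 (adjusted P = 0.287, edgeR). Among earlier codes it was -0.17 (adjusted P = 0.314) and -0.21 (adjusted P = 0.298). Each direction was the same in both ranges. With the code range as a term, adjusted P was 0.0549 for Jun and 0.0637 for Fosl1. Both calls were also lost without a filter on low counts (adjusted P = 0.0768 and 0.144) and with only the 2 groups in the fit (adjusted P = 0.0756 and 0.13), and held with DESeq2 and limma. Junb had a log2 fold change of -0.60 ± 0.26 (adjusted P = 0.171), which was -0.82 among later and 0.10 among earlier codes. For Fos the value was -0.57 (interval -1.34 to 0.20). Leaving out 1 tumor at a time, the value of Fos ran from -0.76 to -0.03. The median of the 10 genes was -0.38, against -0.01 for all genes tested.

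The interaction asks whether KW6002 acts differently on top of cisplatin than alone. It called 0 of the 10 genes in edgeR, against 0.066% of all genes tested, and DESeq2 also called 0. At an unadjusted P under 0.05 were 2 of the 10 genes and 12.2% of all genes. These were Jun, with a log2 value of -0.37 ± 0.14 (SE, adjusted P = 0.285), and Fosl1, with -0.47 ± 0.19 (SE, adjusted P = 0.319, edgeR). The other 8 genes had values from -0.62 for Fos and Nr4a3 to 0.07 for Nr4a2. That of Fos ran from -0.84 to -0.09 when 1 tumor was left out. A fall of Jun and Fosl1 with KW6002 was thus called in tumors given cisplatin and not in those without, but the difference between both settings did not pass the adjusted P limit.

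Compared with vehicle, cotreated tumors had less Nr4a3 and less Jun. These were 2 of 10 genes called, both lower, against 23.5% of all genes tested (10.4% lower), so that the share called was no higher than among all genes. Nr4a3 (ENSMUSG00000028341, chromosome 4, 48045153 to 48086447) measured 1.55, 0.598, 1.27, 0.936 and 0.783 CPM in vehicle and 1.59, 1.1, 0.823, 0.833 and 1.19 CPM in KW6002 tumors. It measured 0.507, 0.94, 0.605, 0.521 and 1.03 CPM in cisplatin and 0.661, 0.358, 0.512, 0.743 and 0.25 CPM in cotreated tumors. Cotreated replicates 1 and 4 overlapped with vehicle replicate 2. The log2 fold change of Nr4a3 was -1.01 ± 0.31 (SE, adjusted P = 0.0153, edgeR). Without vehicle replicate 1 it was -0.81 (adjusted P = 0.0591). Among later codes it was -0.82 (adjusted P = 0.231).

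Jun fell by 0.32 on the log2 scale with cotreatment against vehicle (SE 0.10, adjusted P = 0.0161, edgeR), at the fold limit. With DESeq2, relative log expression scaling, no filter on low counts, at least 10 counts in every tumor, the code range as a term or only the 2 groups in the fit the value was -0.30 or -0.31, short of that limit, with an adjusted P from 0.0142 to 0.0356. The vehicle tumors overlapped with the cotreated ones through vehicle replicate 4, at 69.4 CPM. Leaving out 1 tumor at a time, the call of Jun held in 5 of 20 fits (those without vehicle replicate 4, KW6002 replicate 1, cisplatin replicate 2 or cotreated replicate 1 or 4), with log2 fold changes from -0.26 to -0.40. In the other fits the value fell short of the fold limit, and without vehicle replicate 1 or 3 or cotreated replicate 5 the adjusted P was also above the limit, at 0.0545, 0.0648 and 0.0548. Among later codes the log2 fold change was -0.23 (adjusted P = 0.303). Nr4a2 fell by 0.28 on the log2 scale (adjusted P = 0.0339), short of the fold limit. Nr4a1, the third NR4A gene, was at 9.03 ± 2.13 CPM after cotreatment (SD, n = 5), which is -0.08 on the log2 scale (interval -0.41 to 0.24). The median of the 10 genes was -0.23, against -0.02 for all genes tested.

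Against KW6002 alone, cotreated tumors again had less Nr4a3 and less Jun, 2 of 10 genes called, both lower, against 23.3% of all genes tested (10.7% lower). This comparison and the previous one share the cotreated tumors. For Nr4a3 all 5 cotreated tumors lay below all 5 KW6002 tumors, and the log2 fold change was -1.12 ± 0.31 (SE, adjusted P = 0.00822, edgeR). Nr4a2 did not overlap either, with 9.01 to 10.8 CPM in cotreated and 11.2 to 13.2 CPM in KW6002 tumors and -0.27 on the log2 scale (adjusted P = 0.0347, edgeR), short of the fold limit. Groups without overlap were thus seen in 2 of the 10 genes and in 24.9% of all genes tested. Jun had a log2 fold change of -0.33 ± 0.10 (adjusted P = 0.0132). Leaving out 1 tumor at a time, the call of Nr4a3 held in 20 of 20 fits and that of Jun in 15, and without KW6002 replicate 1 or 4 or cotreated replicate 2, 3 or 5 Jun fell short of the fold limit. Among earlier codes Nr4a3 was at -1.38 (adjusted P = 0.023) and Jun at -0.40 (adjusted P = 0.00557), 2 of the 3 genes called there with Junb, against 19.4% of all genes. Among later codes Nr4a3 and Jun were at -0.90 (adjusted P = 0.234) and -0.25 (adjusted P = 0.323).

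The fall of Nr4a3 and Jun after cotreatment came beside lower neutrophil and endothelial markers, as given above, and beside red blood cell markers that went from 25.9 to 117 CPM in vehicle to at most 0.11 CPM after cotreatment. Red blood cell markers were as low after cisplatin alone (0 to 0.0613 CPM). There Nr4a2 was called, and Jun and Nr4a3 stood at 0.03 and -0.50 on the log2 scale against vehicle (adjusted P = 0.849 and 0.272, edgeR). For cotreatment against cisplatin Nr4a3 was at -0.51 (adjusted P = 0.342, edgeR). The part of these markers in the results was not tested. Jun overlaps an antisense gene (Junos), Fosl1 overlaps Ccdc85b and Junb overlaps Prdx2 on the opposite strand. The libraries kept strand, but the strand setting of the counting is not given in the sources used here, so reads of these neighbours may be included.

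**Figure D3:**
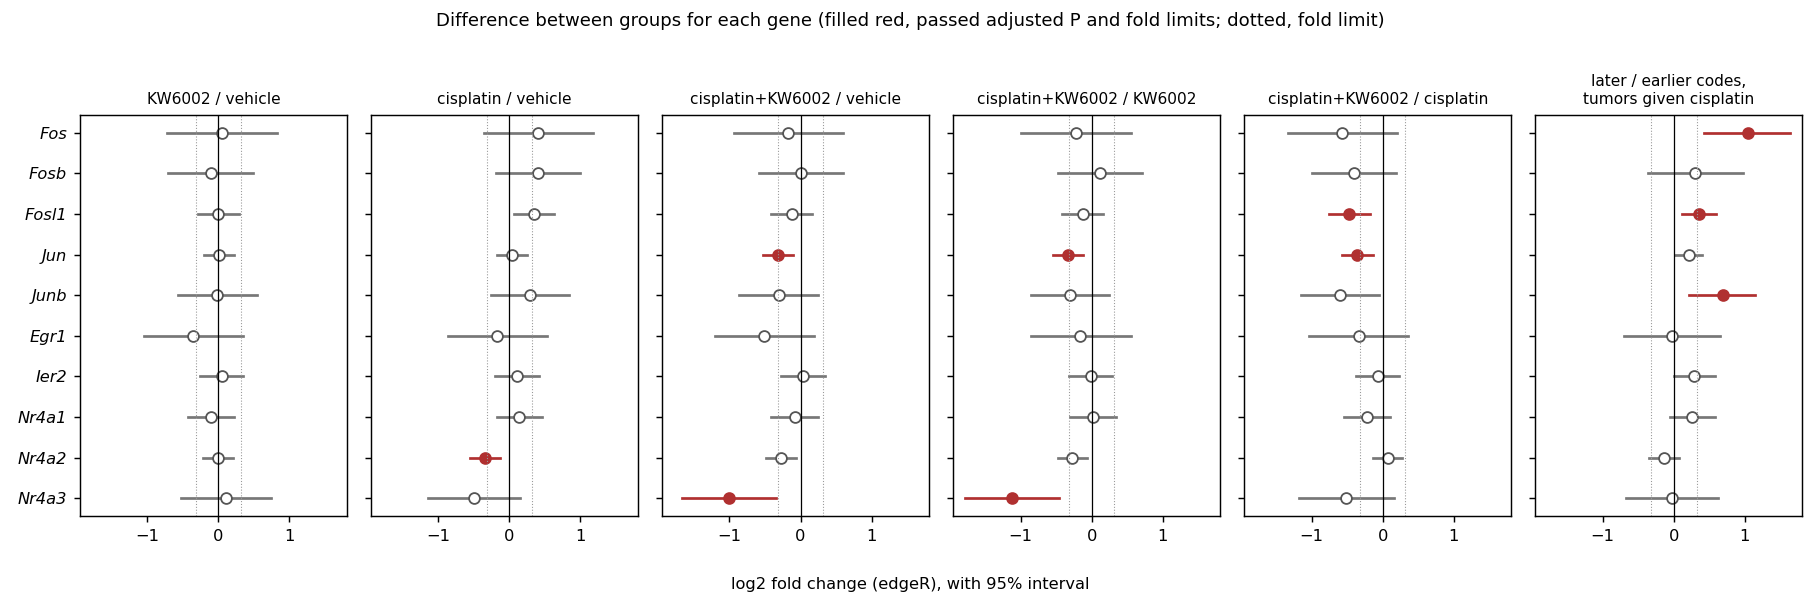
Log2 fold change of each gene with its 95% interval from edgeR, for 5 comparisons of groups and for later against earlier library codes among the 10 tumors given cisplatin. Filled red points passed the adjusted P and fold limits, and dotted lines mark the fold limit of 0.32. Jun is filled in all 3 comparisons of cotreatment, Nr4a3 in 2 of them and Fosl1 in the 1 with cisplatin.

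Across tumors, with group means subtracted, pairs of the 10 genes were correlated. Of 45 pairs, 24 had a Pearson correlation of log2 CPM with an adjusted P under 0.05 (permutation of tumors within groups, 100000 draws, adjusted over the 45 pairs), 18 of them positive, and by Spearman's rank correlation 22 did. Leaving out 1 tumor gave 11 to 24 pairs, with 11 without vehicle replicate 4, 13 without cisplatin replicate 1 and 15 without cisplatin replicate 5. Jun and Junb were the closest pair (r = 0.89, rho = 0.86, n = 20, permutation P of 1e-05, the smallest the draws can give, and 4e-05, adjusted P of 0.00045 and 0.0009), with r = 0.85 without the 2 tumors farthest from the median of Jun. Fosl1 and Junb followed (r = 0.85, rho = 0.83, permutation P = 7e-05 and 0.0002, adjusted P of 0.0015 and 0.00187, r = 0.80 without 2 tumors).

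Egr1 and Nr4a3 formed another pair (r = 0.79, rho = 0.84, n = 20, permutation P = 0.00056 and 0.00022, adjusted P of 0.00504 and 0.00187, r = 0.74 without 2 tumors). Egr1 had no such tie to Junb (r = 0.17) or Ier2 (r = 0.07). Nr4a2 ran against the AP-1 genes, most of all against Junb (r = -0.82, rho = -0.75, permutation P = 0.00119 and 0.00208, adjusted P of 0.00669 and 0.0117, r = -0.75 without 2 tumors). Nr4a1 went with Jun (r = 0.76, rho = 0.77, permutation P = 0.0001 and 3e-05, adjusted P of 0.0015 and 0.0009, r = 0.79 without 2 tumors) and with Egr1 (r = 0.61). All points of a pair share their libraries, and CPM values of one library share its depth.

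When the means of both group and code range were subtracted, the 24 pairs kept their sign, with absolute r from 0.32 to 0.85. For Jun and Junb r was 0.85, for Fosl1 and Junb 0.72, for Egr1 and Nr4a3 0.76 and for Nr4a2 and Junb -0.76. Permuted within group and code range, only 1 of 45 pairs, Egr1 and Nr4a1 (r = 0.74), had an adjusted P under 0.05.

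**Figure D4:**
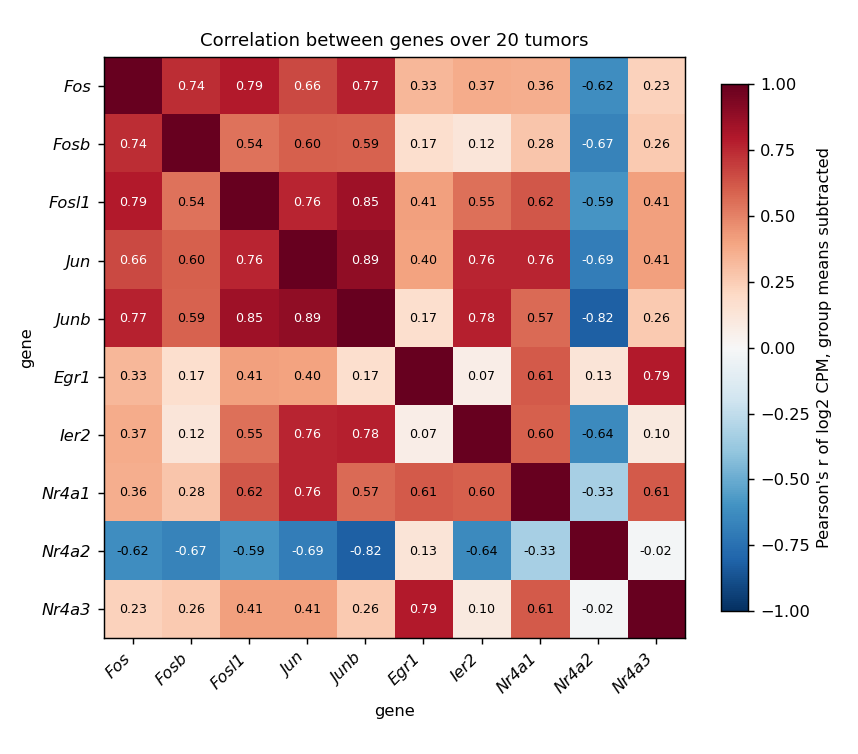
Pearson's r of log2 CPM between each pair of the 10 genes over 20 tumors, with group means subtracted (color scale from -1 to 1). Fos, Fosl1, Jun and Junb form a positive block with r between 0.66 and 0.89, and Nr4a2 is negative with each of them.

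Among other genes with a mean of at least 50 counts, those most like each of 4 of the genes in log2 CPM over the 20 tumors, again with group means subtracted, were listed as a description. Means of the code ranges were not subtracted here, so differences between code ranges remain in these values. Fosl1 was closest to S100a8 (r = 0.91), Cxcr2 (r = 0.91) and S100a9 (r = 0.90), all neutrophil genes. Fos was closest to Tmem109, Ccrl2 and Rassf1 (r = 0.89 for each). Egr1 was closest to Phlda1 (r = 0.82), Areg (r = 0.81), which codes for the EGF receptor ligand amphiregulin, and Plau (r = 0.79), which codes for urokinase. Nr4a1 was closest to Phlda1 (r = 0.91), Slc25a25 (r = 0.82) and Tgfb1 (r = 0.78).

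Related genes were read from lists drawn up by name. Of 30 other immediate early genes, cisplatin against vehicle raised 3 and lowered 0, a share like the 10.6% called among all genes. These were the kinase gene Sgk1 (log2 fold change 0.77, adjusted P = 0.000158), the antiproliferative gene Btg2 (0.79, adjusted P = 0.00118) and the kinase gene Plk3 (0.34, adjusted P = 0.0445, edgeR). Cotreatment against vehicle raised 7 and lowered 6, so that 13 of 30 were called against 23.5% of all genes. Dusp1, a phosphatase that turns off MAP kinases, rose from 16.8 ± 1.22 to 43.6 ± 14.7 CPM (SD, n = 5), and its log2 fold change was 1.38 (adjusted P = 0.000239, edgeR). Sgk1 rose by 1.03 and Btg2 by 0.86 on the log2 scale. Ptgs2, the inducible cyclooxygenase, fell from 186 ± 51.9 to 50.5 ± 18.2 CPM with a log2 value of -1.88 (adjusted P = 0.000992), and Ccn1 and Ier5l fell by 0.82 and 0.47 on the log2 scale. The median of the 30 genes was -0.01, against -0.02 for all genes tested. Against KW6002 alone, cotreatment raised 5 and lowered 5 of them (23.3% of all genes were called), and against cisplatin it called 0 (4% of all genes).

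Of 10 other AP-1 and related bZIP genes, 1, Jdp2, rose after cisplatin (log2 fold change 0.41, adjusted P = 0.0216, edgeR), near the 10.6% of all genes. Cotreatment against vehicle lowered 2, Atf3, a stress-induced factor that pairs with JUN, from 14 ± 3.32 to 5.09 ± 1.32 CPM (SD, n = 5, log2 fold change -1.46, adjusted P = 0.0136), and Batf3 (-1.31, adjusted P = 0.0395), 2 of 10 against 23.5% of all genes. Against KW6002 it lowered Atf3, Batf2 and Batf3, 3 of 10 against 23.3% of all genes (10.7% lower). Batf3 lay at a low level, with means of 0.352 CPM in vehicle, 0.511 CPM in KW6002 and 0.139 CPM in cotreated tumors. Of the 4 EGR and NAB genes tested, Egr2 was lower after cotreatment than after cisplatin (log2 fold change -1.09, adjusted P = 0.0435), while 4% of all genes were called. Among these lists, Batf and Nab2 were higher with later codes among tumors given cisplatin, by 0.92 and 0.35 on the log2 scale, as were Zfp36 (0.52) and Npas4 (1.12) of the other immediate early genes, and Pde4b, a phosphodiesterase gene of the cAMP list, and Elk4, an SRF partner, fell by 0.40 and 0.38 on that scale. Among all genes 7.29% were called there.

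Of 8 other genes that answer to cAMP and CREB, cisplatin raised the clock gene Per1 (log2 fold change 0.98, adjusted P = 0.0273) and lowered Pde4d (-0.43, adjusted P = 0.0118), a phosphodiesterase that breaks down cAMP, and Rgs2 (-0.37, adjusted P = 0.0175, edgeR), 3 of 8 against 10.6% of all genes. Cotreatment against vehicle raised Per1 (1.32), Sik1 (0.82) and Ppargc1a (1.62) and lowered Crem (-0.33, adjusted P = 0.0162), 4 of 8 against 23.5%. Against KW6002 it raised Per1, Sik1 and Ppargc1a and lowered Crem and Rgs2, 5 of 8 against 23.3%. Ppargc1a lay at a low level, with 0.165 ± 0.0517 CPM in vehicle and 0.508 ± 0.287 CPM in cotreated tumors (SD, n = 5). Among 13 regulators of these genes, Creb1 itself fell after cisplatin (-0.33, adjusted P = 0.0427) and after cotreatment (-0.38, adjusted P = 0.0102), 1 and 2 of 13 called with Srf included in the latter, no more than the 10.6% and 23.5% of all genes. Srf fell from 43.8 ± 7.85 to 27.1 ± 2.29 CPM with cotreatment against vehicle (SD, n = 5, log2 fold change -0.69, adjusted P = 0.000276), and was lower after cotreatment than after cisplatin (-0.44, adjusted P = 0.0424). KW6002 alone called 0 genes of any of these lists.

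Of the 3 adenosine receptor genes tested, Adora2b fell after cisplatin and after cotreatment (log2 fold changes -0.49 and -0.99, adjusted P = 0.0112 and 7.69e-06, edgeR), and it was lower after cotreatment than after cisplatin (-0.49, adjusted P = 0.0249). Adora2a, the target of KW6002, was at 0.832 ± 0.173 CPM in vehicle and 0.364 ± 0.142 CPM in cotreated tumors (SD, n = 5, log2 fold change -1.19, adjusted P = 0.0165). Called were thus 1 of 3 receptor genes after cisplatin and 2 of 3 after cotreatment, against 10.6% and 23.5% of all genes.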

How the data were processed

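RNA-Seq was performed on 20 LLC1 tumors. The deposited values are raw counts per Ensembl gene, for which the authors prepared stranded poly(A) libraries, sequenced 50-base reads, aligned them to mm10 with STAR and counted them with HTSeq version 0.6.1p1, per the labels and the study's methods. The strand option is not given in the sources used here. Gene symbols and positions came from GENCODE M21 (GRCm38), which named 35142 of 35226 genes. Groups and replicate numbers came from the sample titles and library codes from the sample descriptions. The title of vehicle replicate 1 differs in form from the other vehicle titles.

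Counts entered edgeR 4.0.16 under R 4.3.3 (filterByExpr by group, TMM, robust quasi-likelihood fit with 4 group means over 20 tumors). Tests were two-sided with Benjamini-Hochberg adjustment over 16665 genes, which hold 99.9% of the counts, and a gene was called at an adjusted P under 0.05 with an absolute log2 fold change of at least 0.32, the study's limits for tumors. A prior count of 2 was added for log2 CPM. FPKM divides CPM by the exon length in kilobases. Code ranges were tested with a group term. The model was tested on simulated data.

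The 10 genes and the lists of related genes were chosen with earlier results of these data known. Each comparison gives values for those of the 10 genes that were called and a range or values for the others. From the lists, up to 3 called genes per direction were named by smallest adjusted P in the main comparisons, and of the genes most alike the first 3. Of 70 list genes all were found by symbol or synonym. Alternatives were DESeq2 version 1.42.0, other scaling, filters and samples, limma version 3.58.1 (voom with sample weights), terms for code range and a replicate block. Those with code terms per arm, their difference between arms and earlier codes only were chosen after seeing the data. Without molecular identifiers, PCR copies of a molecule count as separate reads.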

Additional observations from a re-analysis of the deposited data

Results flagged for a closer look

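In 4 of the 40 sets of 5 tumors (10 genes in 4 groups), 1 tumor lay farther from the others than Dixon's 95% critical value of 0.71 allows for its gap as a share of the range. Chance flags about 1 in 20 such sets if the values are normally distributed and the sets independent. The gaps were taken on CPM, not on the log2 scale, and that of Fos, at 0.712, was only just over the limit. Fos was at 41.9 CPM in cisplatin replicate 5, with the next tumor at 17.8 CPM. Fosb was at 11.9 CPM in the same tumor, with the next at 5.7 CPM, and this tumor also had the most neutrophil marker RNA of the cisplatin group (67.3 CPM). Egr1 was at 28.9 CPM in vehicle replicate 1, the only vehicle tumor with an earlier library code, with the next at 16.4 CPM. Nr4a1 was lowest in cisplatin replicate 1, at 7.44 CPM, with the next at 10.8 CPM. The cause of these values was not tested.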

How the results depend on the processing

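The number of the 10 genes called was 0 for KW6002 against vehicle, for the interaction and for the code ranges over 20 tumors under every alternative tried. For cisplatin against vehicle it was 1, and 0 without a filter on low counts, with only the 2 groups compared or with separate code terms with and without cisplatin, and 3 among later codes. For cotreatment against vehicle it was 2, and 1 with DESeq2, relative log expression scaling, no filter, the code range as a term or only the 2 groups (Jun then misses the fold limit), 0 with at least 10 counts in every tumor (Nr4a3 is then not tested and Jun misses the fold limit), 0 among later codes, and 3 without a fold limit (with Nr4a2) or with separate code terms (with Junb). For cotreatment against cisplatin it was 2, and 0 without a filter, with the code range as a term, with the replicate block, with only the 2 groups, among later or earlier codes, and with separate code terms. For cotreatment against KW6002 it was 2, and 1 without a filter, 0 with at least 10 counts in every tumor or among later codes, 3 without a fold limit (with Nr4a2) or among earlier codes (with Junb), and 4 with separate code terms. For the code ranges among tumors given cisplatin it was 3, 0 without a filter, and 2 with limma, which does not call Fosl1. The 24 correlated pairs became 1 with group and code means subtracted and tumors permuted within group and code range, which changed 2 choices at once. Leaving out each tumor in turn gave 0 to 2 genes for cisplatin against vehicle, 0 to 2 for cotreatment against vehicle, 0 to 2 for cotreatment against cisplatin, 1 to 2 for cotreatment against KW6002, 0 to 3 for the code ranges under cisplatin, and 11 to 24 correlated pairs. Unless stated, the cause was not tested. None of the called log2 fold changes of the 10 genes changed sign.

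Over all genes, cotreatment against cisplatin called 667, but 217 with only these groups, 1 among later and 287 among earlier codes, 1086 without a fold limit and 1018 with limma. The interaction called 11, but 263 with DESeq2 and 291 with limma. Cisplatin against vehicle called 1762, but 2743 among later codes and 1104 with separate code terms. Cotreatment among later codes called 2209 against vehicle and 1654 against KW6002, in place of 3914 and 3884.

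Replicate numbers did not pair the tumors. They partly followed the code ranges, since replicate 1 had an earlier code and replicates 4 and 5 had later codes in all 4 groups. The replicate block and the code term therefore overlap in what they adjust for. Of 30 pairs of same-numbered tumors, 12 had a correlation of deviations over 0.1 (range -0.39 to 0.39), and 3 tumors correlated best with their own number. Between cisplatin and cotreated tumors 4 of 5 pairs were over 0.1 (range -0.16 to 0.23), and there the block left 0 of the 2 calls, Jun and Fosl1. The replicate block, run for the 6 treatment comparisons, changed no other count of the 10 genes there, and over all genes it gave 584 for cotreatment against cisplatin and 0 for the interaction.

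Depth limits Nr4a3 most, with 8 to 51 reads per tumor. For Fos, Egr1, Fosb and Junb the spread between tumors, not depth, sets the width of the intervals.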
